A study of Mus musculus with 12 samples.

Results

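Kupffer cells, the resident macrophages of the liver, were followed here through the mRNA of 10 marker genes in whole liver of wild type and Siah2 knockout (KO) mice. The markers were Clec4f, Lyz2, Cd5l, Marco, Vsig4, C1qa, C1qb, C1qc, Cd68 and Cd74, chosen by symbol, and all 10 were among the 23420 gene symbols of the count tables. Livers came from 12 C57BL/6 mice of about 20 weeks, taken at Zeitgeber time (ZT) 10, with 3 mice in each of 4 groups: wild type females (WTF), Siah2 KO females (KOF), wild type males (WTM) and Siah2 KO males (KOM). The KO mice were Siah2-/-, and Siah2 encodes a ubiquitin ligase. The study describes individual livers, while the protocol in the labels speaks of RNA pooled from 3 mice, so each library was taken as 1 mouse here. Libraries were made by QuantSeq, which reads 1 fragment near the 3′ end of each polyadenylated mRNA, so values are given as counts per 1000000 of the scaled library total (CPM) with no scaling for gene length. In whole liver, fewer cells of a type and less RNA per cell cannot be told apart.

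Kupffer cells line the sinusoids and clear particles, microbes and ageing blood cells from portal blood. Clec4f is a C-type lectin that in mice is largely restricted to these cells, Vsig4 is a receptor for complement fragments, Marco is a scavenger receptor, and Cd5l is a protein secreted by tissue macrophages. C1qa, C1qb and C1qc encode the chains of C1q, which starts the classical complement pathway and is made mainly by macrophages, unlike most complement proteins, which come from hepatocytes. Lyz2 encodes lysozyme of myeloid cells, Cd68 a lysosomal membrane protein, and Cd74 the invariant chain that guides MHC class II molecules.

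The start regions of 4 markers are shown because the results turn on them: Clec4f, Vsig4 and C1qb separated every female from every male, and the Marco values turned on 2 mice. Each is the 250 bases before the RefSeq start site on the GRCm38.p6 assembly, written 5′ to 3′ on the gene's strand, which is the minus strand for all 4. Capitals mark GAGGAA, the core letters of the PU box bound by the macrophage factor PU.1, in either direction. The regions are Clec4f at chr6:83656117-83656366, Vsig4 at chrX:96293439-96293688, C1qb at chr4:136886201-136886450 and Marco at chr1:120505025-120505274.
Clec4f: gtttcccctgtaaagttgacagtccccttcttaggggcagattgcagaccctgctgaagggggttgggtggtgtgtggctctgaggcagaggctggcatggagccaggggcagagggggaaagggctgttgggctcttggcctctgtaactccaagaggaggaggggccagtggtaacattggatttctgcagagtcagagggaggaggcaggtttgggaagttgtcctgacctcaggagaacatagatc
Vsig4: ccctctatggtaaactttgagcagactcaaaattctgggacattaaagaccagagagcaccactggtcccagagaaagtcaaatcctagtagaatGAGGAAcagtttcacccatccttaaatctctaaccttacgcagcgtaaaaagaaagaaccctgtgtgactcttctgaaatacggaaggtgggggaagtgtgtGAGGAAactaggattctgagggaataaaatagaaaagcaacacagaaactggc
C1qb: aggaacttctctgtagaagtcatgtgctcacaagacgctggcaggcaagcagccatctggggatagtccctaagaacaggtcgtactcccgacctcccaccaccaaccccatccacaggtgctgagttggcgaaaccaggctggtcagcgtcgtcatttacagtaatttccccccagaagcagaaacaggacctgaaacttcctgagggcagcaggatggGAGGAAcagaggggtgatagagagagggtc
Marco: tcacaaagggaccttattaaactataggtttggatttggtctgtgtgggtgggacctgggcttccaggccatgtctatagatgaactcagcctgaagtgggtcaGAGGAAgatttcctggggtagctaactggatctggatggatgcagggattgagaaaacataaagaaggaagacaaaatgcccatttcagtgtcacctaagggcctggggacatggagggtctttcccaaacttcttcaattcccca
GAGGAA lay 155 and 53 bases before the start site of Vsig4, 30 bases before that of C1qb and 146 bases before that of Marco, and these letters were not in the window of Clec4f. Over the same 250 bases before the start site, GAGGAA or its reverse complement TTCCTC was found in 6 of the 8 markers with an entry (Marco, Cd5l, C1qb, C1qc, Cd68 and Vsig4) and in 23.4% of 32536 promoters. TGCTGAC, the core letters of sites bound by MAF factors, or GTCAGCA was found in 0 of the 8 and in 3.79% of all. These matches describe letters only. C1qa and Cd74 had no entry. The 3 C1q genes lie side by side at chr4:136880126-136898844, within 18719 bases, and Lyz2 lies at chr10:117277541-117282272 beside its near-identical copy Lyz1.

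Totals ran from 1293688 to 4056144 counts per library, so that 3 counts stood for 0.733 to 2.27 CPM. The ribosomal precursor Rn45s took 5.68% to 17.9% of counts. WTF 1091 stood apart from its group: its scaling factor by the trimmed mean of M values (TMM) was 0.847, against 0.982 to 1.06 in the others, and its counts differed from those of the other WTF mice by a chi-square of 42.0 and 45.0 per degree of freedom, against 6.71 to 21.8 for other pairs within a group. Siah2 itself was detected in every mouse, at 13.7 ± 2.69 CPM in WTF and 10.6 ± 1.55 in KOF, and at 21.6 ± 5.18 in WTM and 13.7 ± 3.98 in KOM (mean ± SD, n = 3). Neither difference passed the edgeR test (adjusted p = 0.641 and 0.9999), and since no source used here says where the deletion lies relative to the 3′ read, these values do not check the genotypes. The library numbers in the labels ran in 1 block per sex and the sexes were deposited in separate tables, so sex and library handling cannot be told apart. The mouse numbers did not run in such blocks, since KOF 1070 lies between WTM 1055 and KOM 1075.

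All markers except Cd68 were read in every mouse. Cd5l was the highest of the 10 in 12 of 12 mice, with a median of 214 CPM, followed by C1qa at 43.4, Lyz2 at 34.7, Marco at 34.2, Clec4f at 23.3 and C1qc at 22.2 CPM. The ranges of these 5 over the 12 mice overlapped one another. Vsig4 (9.90 CPM) and C1qb (7.76 CPM) were lower, Cd74 had a median of 2.64 CPM and Cd68 of 0.797 CPM. Cd68 had 0 counts in 5 mice and at most 9 in any, and 0 counts allow up to 0.890 to 2.27 CPM in those libraries. The sources give no molecular identifiers, so such limits cover counting error only. Cd68 failed edgeR's filter on low counts in every comparison. DESeq2, run without that filter, gave it unadjusted p of 0.305 to 0.941.

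**Figure D1:**
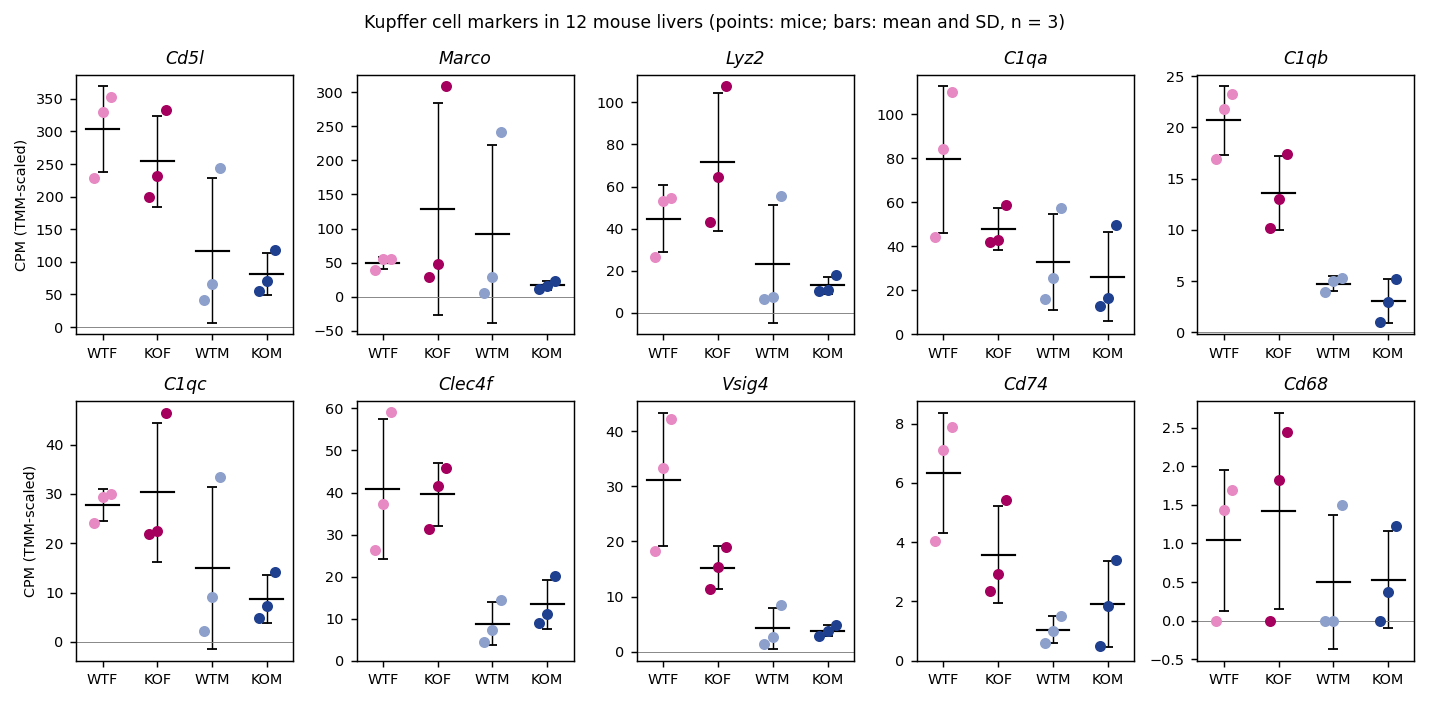
CPM of the 10 Kupffer cell markers (vertical axes, linear, a scale of its own for each gene) in WTF, KOF, WTM and KOM livers. Each point is a mouse, ordered by value within its group, and bars give the mean and SD (n = 3). For Clec4f, Vsig4 and C1qb all 6 females lie above all 6 males, and in the Marco panel 1 KOF mouse (308 CPM) and 1 WTM mouse (241 CPM) lie far above the rest.

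The markers that passed a test did so between the sexes, with females higher. Summed over the 10 markers, the level was 394 to 945 CPM in the 6 females (median 564) and 93.4 to 662 CPM in the 6 males (median 141). Cd5l made up 35.2% to 56.4% of the sum in each mouse. Marco made up 32.7% of it in KOF 1070 and 36.4% in WTM 1086, the highest mouse of each sex. In wild type mice 3 of the 8 markers tested were higher in females than in males (edgeR's quasi-likelihood test, adjusted p under 0.05), beside 1.39% of all genes tested and 0.686% called in that direction. Vsig4, 1 of the 3, passed the low-count filter there through the females alone, so its direction was tied to the filter. In KO mice it was 7 of 8, beside 11.5% of all genes and 5.69% called higher. Among these 7, Vsig4 and C1qb passed the filter through the females alone, so their direction was tied to it. A contrast of all 6 females with all 6 males, the mean of both genotypes, was added after these values were seen. It called 6 of 9 markers, all higher in females, beside 7.79% of all genes and 3.65% called higher. Cd74, 1 of the 6, passed the low-count filter through the females alone, so its direction was tied to the filter. DESeq2 called 8 of 9 there, beside 9.12% of genes, and 8 of 9 had an unadjusted p under 0.05 in edgeR, beside 23.2%. The sex difference in KO mice minus that in wild type mice was called for 0 of 9 markers, beside 0.255% of all genes. In the contrast over both genotypes, the median over the 9 markers was 1.68 on the log2 scale, against 0.01 over all genes tested.

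Clec4f was read at 37.2, 26.4 and 59.0 CPM in WTF, 45.9, 31.4 and 41.5 in KOF, 4.54, 14.5 and 7.33 in WTM and 20.1, 11.1 and 9.04 in KOM. The lowest female was above the highest male. The female level was 4.54 times the male level in wild type mice (log2 fold change 2.18, SE 0.44, edgeR adjusted p = 0.0410) and 2.99 times in KO mice (1.58, SE 0.28, adjusted p = 0.00210).

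Vsig4 was read at 42.2, 33.2 and 18.2 CPM in WTF, 19.0, 11.3 and 15.4 in KOF, 1.51, 8.49 and 2.75 in WTM and 4.84, 3.83 and 2.93 in KOM. Again no male reached the lowest female, although some male values rest on few reads, 2 counts in WTM 1055. The gene lies on the X chromosome (chrX:96247201-96293438). Its log2 fold change between the sexes was 2.84 (SE 0.54, edgeR adjusted p = 0.0310) in wild type and 2.00 (SE 0.35, adjusted p = 0.00200) in KO mice. In both fits Vsig4 passed the low-count filter through the females alone, so the direction of these calls was tied to the filter.

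C1qb stood at 21.8, 16.9 and 23.3 CPM in WTF, 17.4, 10.2 and 13.03 in KOF, 5.30, 4.99 and 3.97 in WTM and 5.21, 2.98 and 0.977 in KOM. It was the third marker whose sexes did not overlap. Over all genes tested in the 12 mice, 4.42% separated every female from every male, and 2.14% did so with the females above. Between the sexes C1qb differed by 2.14 (SE 0.33, edgeR adjusted p = 0.0114) in wild type and 2.23 (SE 0.47, adjusted p = 0.00682) in KO mice on the log2 scale. In KO mice it passed the low-count filter through the females alone, so its direction there was tied to the filter.

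The other 2 chains of C1q followed less closely. C1qa was read at 110, 84.0 and 44.2 CPM in WTF, 59.0, 42.7 and 42.1 in KOF, 25.7, 57.4 and 15.9 in WTM and 49.5, 12.8 and 16.4 in KOM, so that WTM 1086 and KOM 1075 fell among the females. Its log2 difference between the sexes was 1.28 (SE 0.48) in wild type and 0.89 (SE 0.36) in KO mice, with edgeR adjusted p = 0.235 and 0.133. C1qc was read at 29.3, 24.0 and 30.0 CPM in WTF, 46.5, 21.9 and 22.5 in KOF, 2.27, 33.5 and 9.16 in WTM and 14.1, 7.23 and 4.88 in KOM, with WTM 1086 above 5 of the 6 females. It passed in KO mice (1.85, SE 0.38, edgeR adjusted p = 0.00582) and had 0.86 (SE 0.61, adjusted p = 0.541) in wild type mice. Without WTM 1086 the wild type value was 2.11 for C1qc and 1.96 for C1qa, neither called. Without KOF 1070 C1qc in KO mice was 1.37 and no longer called (edgeR adjusted p = 0.0566), C1qa was called in wild type mice without WTF 1091 (1.58, adjusted p = 0.0390), and it was 1.69 and called in KO mice without KOM 1075 (adjusted p = 0.00132). Within a mouse, the count of C1qa per count of C1qb ran from 1.90 in WTF 1091 to 16.8 in KOM 1081, where C1qb had only 4 counts.

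Cd5l was read at 329, 229 and 353 CPM in WTF, 333, 199 and 231 in KOF, 65.8, 244 and 41.8 in WTM and 118, 70.1 and 55.9 in KOM. Except for WTM 1086, every male was below every female. The sexes differed by 1.65 (SE 0.25, edgeR adjusted p = 0.000671) in KO mice and by 1.37 (SE 0.55, adjusted p = 0.271) in wild type mice on the log2 scale. Without WTM 1086 the wild type value was 2.50 and was called (edgeR adjusted p = 0.0171). Lyz2 was read at 54.7, 26.4 and 53.3 CPM in WTF, 108, 43.1 and 64.6 in KOF, 7.57, 55.4 and 6.72 in WTM and 17.9, 11.1 and 10.3 in KOM. WTM 1086 was again the male within the female range. Lyz2 passed in KO mice (2.48, SE 0.32, edgeR adjusted p = 0.000133) and had 0.94 (SE 0.68, adjusted p = 0.557) in wild type mice, where it was 2.65 and called without WTM 1086 (edgeR adjusted p = 0.0375). The last 300 bases of the Lyz1 and Lyz2 transcripts were 97.0% identical, and Lyz1 had 0 to 4 counts, so the split of lysozyme reads between the genes is uncertain.

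Cd74 ranged from 2.37 to 7.87 CPM in females and from 0.488 to 3.40 CPM in males, on 2 to 24 counts per mouse. It passed the low-count filter in the fit of all 12 mice, where it was higher in females by 1.86 (SE 0.48, edgeR adjusted p = 0.0239), and in the female fit. In the male fit it failed the filter, so females alone admitted it and its direction was tied to the filter. The ranges overlapped. The call was lost without WTM 1087, KOM 1075, WTF 1089 or KOF 1070 (edgeR adjusted p = 0.0529 to 0.0990).

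**Figure D2:**
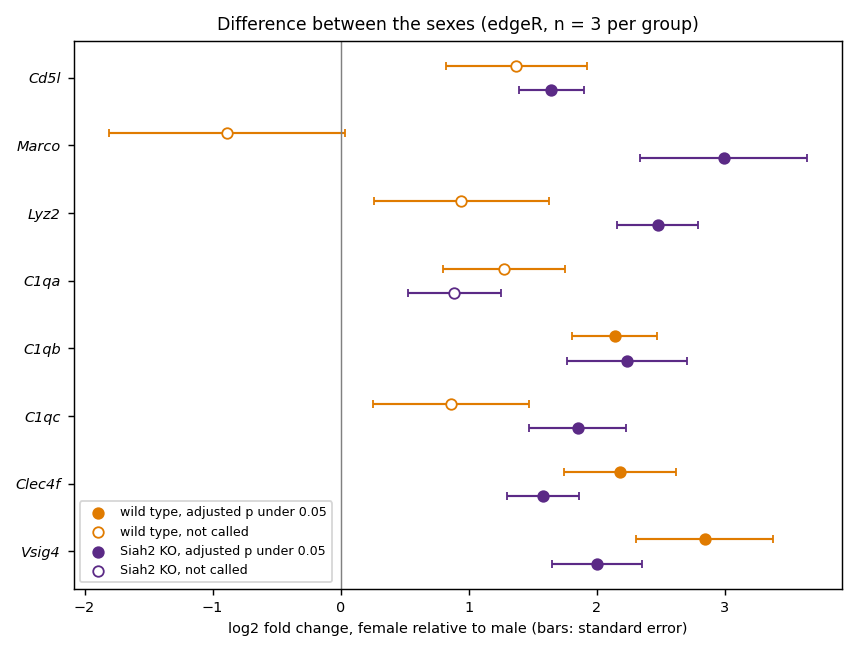
Log2 fold change of female relative to male level (horizontal axis) for the 8 markers tested in wild type and in KO mice, with standard errors from edgeR (n = 3 per group). Filled points had an adjusted p under 0.05: 3 in wild type and 7 in KO mice, all to the right of 0, while Marco in wild type mice lies at -0.89. Vsig4 in both genotypes and C1qb in KO mice passed the low-count filter through females alone, which tied their direction to it.

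The calls in wild type mice rested on few libraries. Without WTM 1055 or without WTM 1087 edgeR called 0 of the markers (Clec4f, Vsig4 and C1qb then had adjusted p = 0.0656 to 0.268), without WTF 1089 it called 1, without WTF 1090 2, without WTM 1086 4 (with Cd5l and Lyz2, and without C1qb at adjusted p = 0.0527), and without WTF 1091 it called 5. Vsig4 was 3.72 without WTM 1086. In KO mice the count was 5 without KOF 1070, where Marco moved from 2.99 to 1.22 and C1qb was not called (adjusted p = 0.0591), 6 without KOM 1081, where Marco was not called (adjusted p = 0.0669), and 8 without KOM 1075, where C1qb was 2.90, and 4 when all 4 groups shared 1 estimate of the spread. Over both genotypes it was 4 without KOF 1070 and 9 without WTM 1086, and Clec4f, Vsig4, C1qb and Cd5l were called in each of the 12 fits that left out 1 mouse.

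With loss of Siah2 no marker passed the test in either sex. In KOF against WTF mice edgeR called 0 of 9 markers, as it called 0% of all genes, although 1 of the 9 markers and 15.6% of all genes had an unadjusted p under 0.05. By DESeq2, 0 markers and 3.70% of genes were called. Of the 9, 3 had a fitted change above 0, against 47.3% of all genes.

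Vsig4 had the lowest value of the comparison. KOF mice stood at 15.2 ± 3.86 CPM and WTF mice at 31.2 ± 12.1 (mean ± SD, n = 3), and the highest KOF mouse (19.0) was above the lowest WTF mouse (18.2, WTF 1091). The log2 fold change was -1.02 (SE 0.36, edgeR adjusted p = 0.212). C1qa had -0.72 (SE 0.34, adjusted p = 0.349), with the same wild type mouse near the KOF mice, at 44.2 CPM. Without WTF 1091, Vsig4 had -1.29 (edgeR adjusted p = 0.0128) and C1qa -1.01 (adjusted p = 0.0164), and edgeR then called 936 genes in place of 0. The same library was the lowest WTF mouse for Marco and Cd74 and the highest for Clec4f, Cd5l, C1qb and C1qc.

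C1qb had -0.58 (SE 0.29, edgeR adjusted p = 0.376), Cd74 -0.75 (SE 0.47, adjusted p = 0.488) and Cd5l -0.24 (SE 0.27, adjusted p = 0.727). Clec4f was at -0.02 (SE 0.30, adjusted p = 0.987), with means of 40.9 CPM in WTF and 39.6 CPM in KOF. Lyz2 had 0.70 (SE 0.37, adjusted p = 0.402) and C1qc 0.15 (SE 0.32, adjusted p = 0.868). The KOF and WTF ranges overlapped for all 10 markers, while 23.4% of all genes tested did not overlap.

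In KOM against WTM mice edgeR called 0 of the 7 markers tested and 0% of all genes, with 1 marker (Marco) and 4.05% of genes at an unadjusted p under 0.05. By DESeq2, 0 markers and 0.0370% of genes were called. Vsig4, Cd74 and Cd68 failed edgeR's filter on low counts in males, and DESeq2 gave them log2 fold changes of -0.16, 0.93 and 0.16 (adjusted p = 0.9999 each). The fitted change was above 0 for 1 of 7 markers, beside 48.1% of all genes: Clec4f was at 0.55 (SE 0.42, edgeR adjusted p = 0.9999). Without WTM 1086, however, Lyz2 moved from -0.85 to 0.89, Cd5l from -0.54 to 0.64, C1qa from -0.33 to 0.40 and C1qc from -0.85 to 0.41, none of them called. That 1 mouse set the sign of these values. Ranges of KOM and WTM overlapped for all 10 markers, while 8.93% of all genes tested did not overlap.

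**Figure D3:**
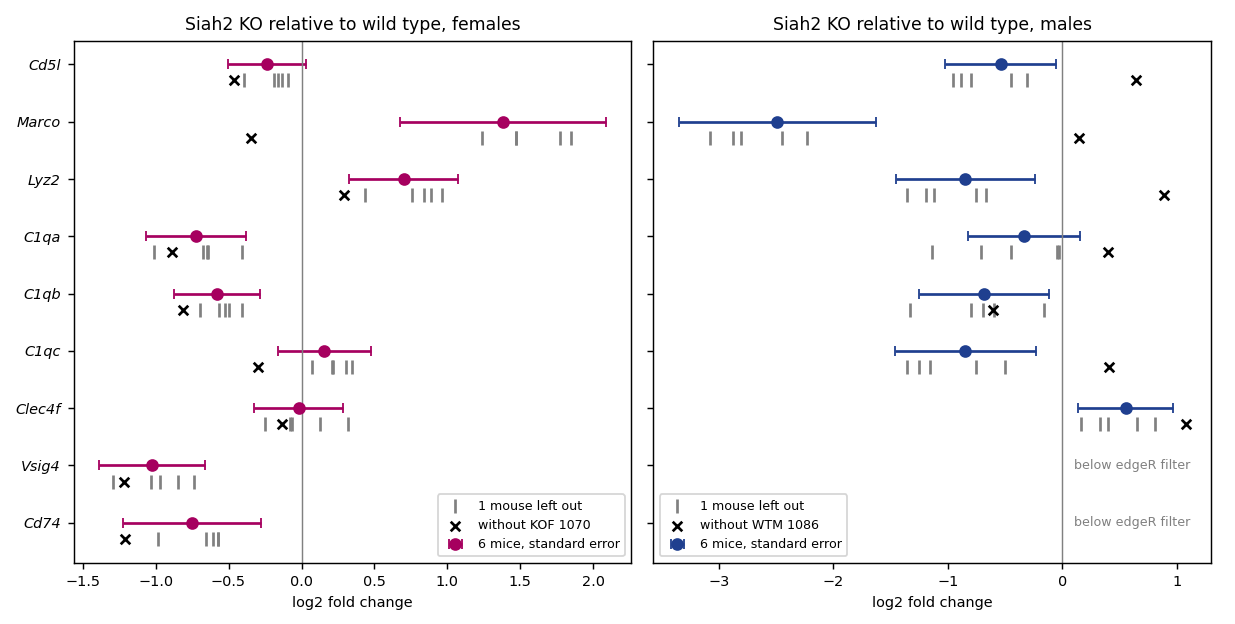
Log2 fold change of Siah2 KO relative to wild type (horizontal axes, scaled apart) in females (left) and males (right), with edgeR standard errors (6 mice each). Grey ticks give the value with 1 mouse left out and crosses the value without KOF 1070 or WTM 1086. No marker passed the test with all mice, the cross for Marco lies at -0.34 in females and 0.14 in males, and Vsig4 and Cd74 fell below edgeR's filter on low counts in males.

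Marco was decided by 2 mice. It was read at 55.1, 54.9 and 38.8 CPM in WTF, 308, 29.6 and 48.0 in KOF, 29.5, 241 and 5.19 in WTM and 23.5, 15.3 and 11.2 in KOM. KOF 1070 and WTM 1086 had 1135 and 483 counts of Marco, and the other 10 mice 17 to 185. Per count of Cd5l, Marco stood at 0.927 and 0.988 in these mice and at 0.110 to 0.448 in the others. The fitted change with KO was 1.38 in females (SE 0.71, edgeR adjusted p = 0.389) and -2.49 in males (SE 0.86, adjusted p = 0.9999). Without KOF 1070 the female value was -0.34, and without WTM 1086 the male value was 0.14.

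**Figure D4:**
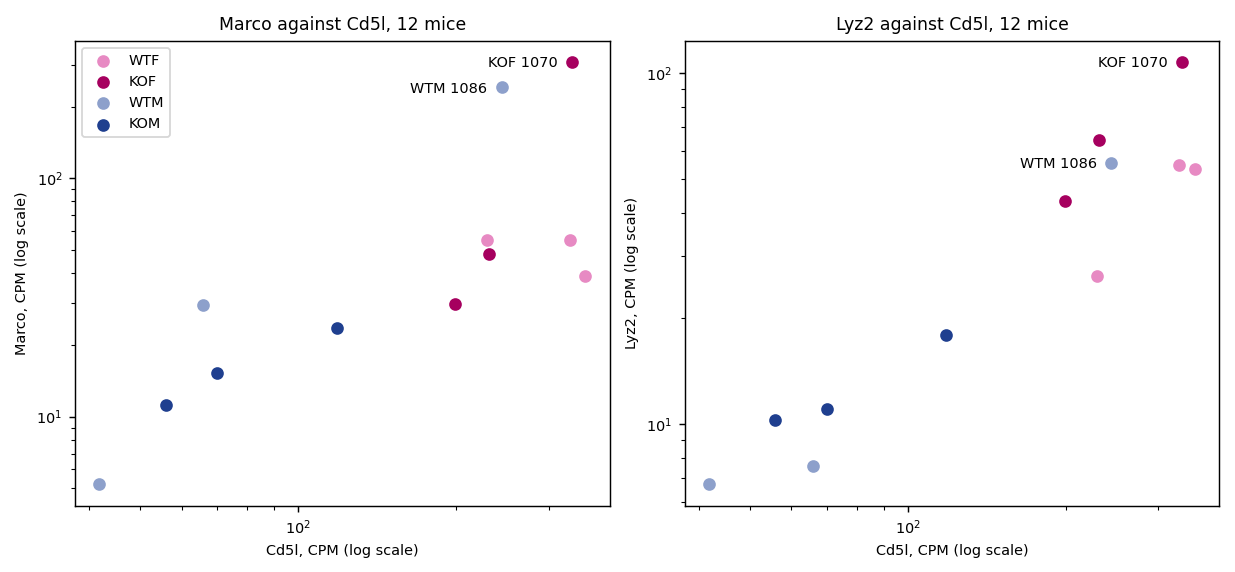
Marco (left) and Lyz2 (right) against Cd5l, in CPM on log axes, for the 12 mice coloured by group. KOF 1070 and WTM 1086 lie above the other mice for Marco (308 and 241 CPM), and WTM 1086 lies among the females in Cd5l (244 CPM) and Lyz2 (55.4 CPM).

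The difference between the 2 effects of KO, female minus male, was called for 0 of 9 markers by edgeR and for 0 by DESeq2, beside 0.255% and 3.32% of all genes, and 1 marker (Marco) and 14.1% of genes had an unadjusted p under 0.05 in edgeR. Marco had the largest value, 3.87 (SE 1.35, edgeR adjusted p = 0.199), and -0.46 (adjusted p = 0.893) without both mice, an alternative added after seeing the data. Combining the sexes, KO against wild type called 0 of 8 markers and 0.0111% of genes with edgeR, and by DESeq2 0 markers and 0.00560% of genes were called. This fit had no term for sex, so the difference between the sexes added to its spread. There were 0 markers and 5.65% of genes with an unadjusted p under 0.05. Vsig4 had the lowest value there, -0.95 (SE 0.62, edgeR adjusted p = 0.869).

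Of 35 other macrophage genes listed, 27 were tested in the contrast of all females with all males, and edgeR called 10 higher in females and 0 lower, beside 3.65% of all genes called higher and 4.14% lower. A value above 0 was found for 26 of the 27, beside 51.4% of all genes, and their median was 1.10 on the log2 scale against 0.01 over all genes. In the fits within a sex, 27 genes of the list passed the low-count filter in females and 15 in males. Any gene of the 27 that passed through females alone had its direction tied to the filter, so these counts and the median are partly set by it. Fcgr3, an Fc receptor, was higher by 2.06 (SE 0.36, edgeR adjusted p = 0.00208), Tyrobp, a signalling adaptor of myeloid receptors, by 2.33 (SE 0.46, adjusted p = 0.00526), and Cfp, properdin of the alternative complement pathway, by 1.84 (SE 0.41, adjusted p = 0.0114). Fcna, a ficolin of macrophages, was higher by 1.08 (SE 0.21, adjusted p = 0.00374), and it was the 1 gene of the list that edgeR called within wild type mice (1.73, adjusted p = 0.0124). Mpeg1, a pore-forming protein of phagocytes, had 0.55 (adjusted p = 0.362), and Nr1h3, the nuclear receptor LXRα, 0.32 (adjusted p = 0.201). With loss of Siah2, edgeR called 0 of 27 in females and 0 of 15 in males. DESeq2 called 1 in females, Fcna, and 0 in males, beside 3.70% and 0.0370% of all genes. In edgeR 5 of 27 in females and 0 of 15 in males reached an unadjusted p under 0.05, beside 15.6% and 4.05% of all genes. Fcna had 17.7, 22.3 and 31.4 CPM in KOF against 63.7, 53.1 and 48.6 in WTF, groups that did not overlap (log2 fold change -1.22, SE 0.28, edgeR adjusted p = 0.109). Of the 27 genes, 1 was higher and 2 were lower in KOF without overlap of the groups, beside 23.4% of all genes without overlap.

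Of 12 MHC class II genes, which work with Cd74, 7 were tested between all females and all males, 4 were called higher in females and 0 lower, and the median was 1.12 on the log2 scale. These counts and those of the next 3 lists stand beside 3.65% of all genes called higher and 4.14% lower. In the male fit 6 of the MHC class II genes and 6 of the growth factor and receptor genes passed the low-count filter. Any gene that passed through females alone had its direction tied to the filter. The summed level was 115 to 195 CPM in females and 47.2 to 81.4 in males, with no overlap. Ctss, the protease that cleaves the invariant chain, was higher by 1.90 (SE 0.24, edgeR adjusted p = 0.000103), and H2-Aa, a class II chain, was 2.46 times as high (adjusted p = 0.00236). Among 19 lysosomal genes 18 were tested, and 4 were called higher and 0 lower (median 0.13). Of 10 growth factor and receptor genes of macrophages 7 were tested and 2 were called higher, among them Csf1r, the receptor for colony-stimulating factor 1, at 0.91 (SE 0.22, adjusted p = 0.0163). Of 12 complement partners and regulators in the tables, C3 was higher in females (0.65, adjusted p = 0.0107), Calr was lower (-0.74, adjusted p = 0.00344) and the median was 0.05. Within either sex, edgeR and DESeq2 called 0 genes of these 4 lists with loss of Siah2, and 7 of 44 tested in females and 3 of 42 in males had an unadjusted p under 0.05, beside 15.6% and 4.05% of all genes.

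Markers of other liver cells were compared in the same contrast of all females with all males. Of 15 genes of sinusoidal endothelial cells, all tested, 1 was called higher in females by edgeR and 1 by DESeq2, and the median was 0.32. A value above 0 was found for 12 of the 15, beside 51.4% of all genes, and 5 were higher at an unadjusted p under 0.05 in edgeR. Of 12 stellate cell genes 11 were tested and 0 called (edgeR; 2 at an unadjusted p under 0.05, 0 by DESeq2), with a median of 0.06. Of 10 hepatocyte genes, edgeR called 2 higher and 1 lower and DESeq2 4 higher and 1 lower, with a median of 0.28. At an unadjusted p under 0.05 in edgeR, 5 were higher and 2 lower. Of 7 bile duct genes 2 were tested and 0 called (1 at an unadjusted p under 0.05, 0 by DESeq2). Among red blood cell genes 3 were tested, and Alas2, the heme synthesis enzyme of red cells, was lower in females by 2.60 on the log2 scale (log2 fold change -2.60, adjusted p = 1.81e-07).

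Blood cell markers were low throughout. Monocyte and neutrophil genes summed to 8.76 to 17.9 CPM in females and 1.49 to 6.05 in males, and T and NK cell genes to 6.75 to 27.99 and 1.83 to 5.53 CPM. B and plasma cell genes summed to 2.96 to 8.77 CPM in females and 1.49 to 4.25 in males. Dendritic cell genes summed to 4.35 to 13.03 and 4.27 to 9.49 CPM. No gene of the B, T and NK or dendritic cell lists passed the low-count filter. Pax5 of B cells and Chi3l3 of monocytes and neutrophils were at 0 in every mouse. In the first list 1 gene passed edgeR's filter between all females and all males, S100a8 of neutrophils, and edgeR called it higher in females (adjusted p = 0.0163), on 0 to 15 counts in females and 0 in every male. With 0 counts in males, S100a8 could pass the filter only through females, so the direction of its call was fixed by the filter. DESeq2 called S100a9 (adjusted p = 0.0140) and Csf3r (adjusted p = 0.0399) of that list higher in females. The sums of the first 2 lists did not overlap between the sexes, and their part in the marker levels was not tested.

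**Figure D5:**
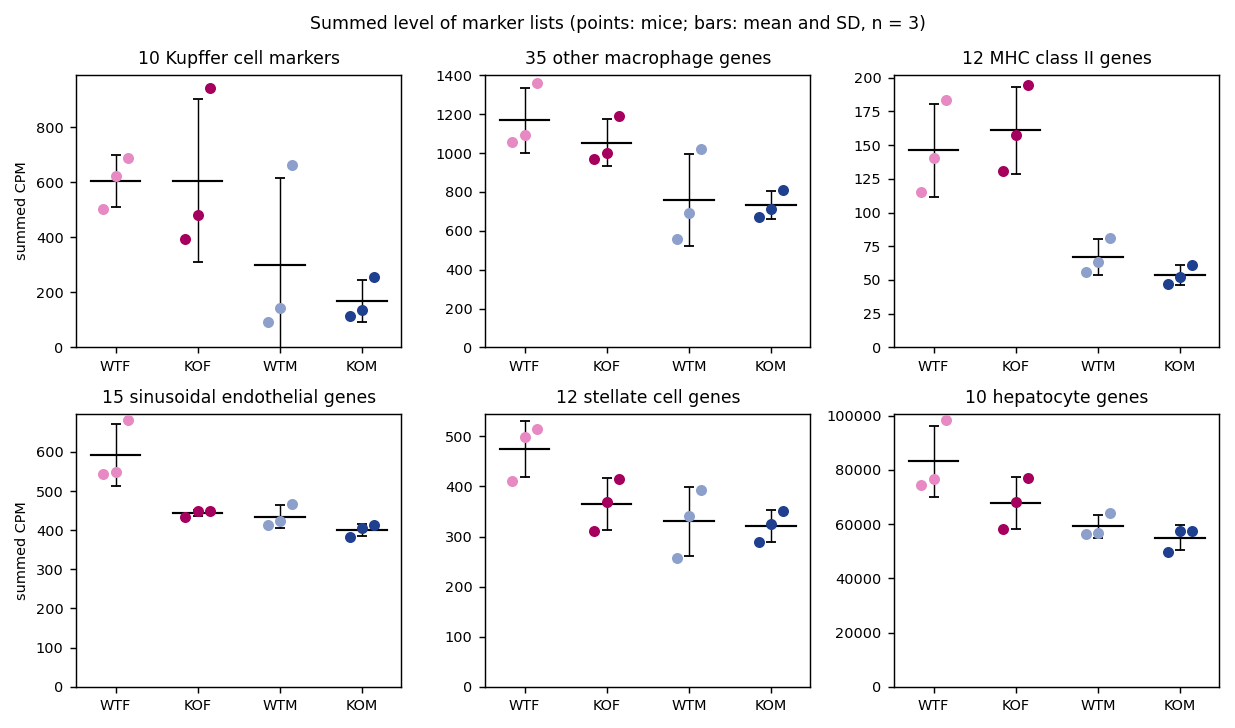
Summed CPM (vertical axes, from 0, a scale of its own for each panel) of 6 gene lists per mouse, with the mean and SD of each group (n = 3). MHC class II genes separate all females (115 CPM and above) from all males (81.4 CPM and below), while the ranges of the sexes overlap in every other panel.

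Most pairs of markers had positive correlations from mouse to mouse. Because the sexes form separate clusters, the 28 pairs formed by the 8 markers that averaged 5 CPM or more were compared within each sex (6 mice, log2 CPM). In males Pearson's r was above 0 in 28 of 28 pairs, from 0.11 to 0.97 with a median of 0.68 (median Spearman's rho 0.63). In females it was above 0 in 24 of 28 pairs, from -0.41 to 0.95 with a median of 0.48 (rho 0.54). By an exact permutation test adjusted over the 28 pairs, 0 passed in either sex, with 11 pairs in males and 3 in females at an unadjusted p under 0.05. Leaving out the 2 mice farthest from the median of the first gene gave medians of 0.51 in males and 0.55 in females, with 20 and 26 pairs above 0. The points share library depth.

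The genes most like the mean profile of these 8 markers were sought among 8349 genes, over 12 mice with each group centred on its mean. Wfdc17, a secreted protein of macrophages, came first (r = 0.96), and Rgs2, a regulator of G protein signalling, second (r = 0.96). Wfdc17 was 23.1 CPM in KOF 1070 and 16.0 in WTM 1086, against 8.29 to 9.85 in the other KOF and 1.83 to 3.78 in the other WTM mice. Nr1i3, Emr4, Mepce, Supt4a, Ctss, Itgal, Bgn and Pik3cd followed, down to r = 0.88. Emr4 is an adhesion receptor of macrophages, Itgal an integrin chain of leukocytes, and Nr1i3 a nuclear receptor of hepatocytes, so the genes are not of 1 cell type. With the other markers as reference, Cd5l (0.95) and Lyz2 (0.94) were closest to their mean, and Cd74 (0.30) and Cd68 (0.48) the farthest.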

How the data were processed

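Liver RNA of 12 mice was sequenced with the QuantSeq 3′ method, 3 mice per sex and genotype, and the authors deposited raw read counts per gene symbol in a table for each sex. The submitters' processing notes name STAR, DESeq and mm10, with versions not given in the sources used here. Tables were joined by row (23420 symbols, all columns mapped); 27 rows carry symbols turned into dates and stayed in the fits. Totals of 1293688 to 4056144 counts limit precision for the low markers.

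Groups came from the labels. Genes were filtered with filterByExpr, scaled by TMM and tested with edgeR 4.0.16 (R 4.3.3) by the quasi-likelihood test, two-sided, with Benjamini-Hochberg adjustment over all genes tested and a threshold of 0.05, within the groups compared; interaction and combined fits used all 12 mice. Replicates are separate mice by the study's account, so p-values measure the spread between these libraries. CPM used TMM-scaled totals, and log2 CPM for correlations a prior count of 3. Alternatives were DESeq2 1.42.0, limma 3.58.1 (voom, with and without quality weights), RLE factors, other filters, a shared fit, a term for sex, and leaving out mice. On simulated counts for KOF against WTF, 80.5% of 200 genes changed by 2 on the log2 scale were recovered. In the other comparisons it was 59% (difference of the KO effects) to 95% (all females against all males). Smaller changes, such as the -1.02 to 1.38 of the markers in KOF against WTF, were not simulated.

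The members and lists were chosen with earlier results of these data known. Named genes were all 10 markers and Siah2; from each other list the 2 of highest mean CPM, the 2 of smallest p in KOF against WTF, the 1 in KOM against WTM and those called by edgeR or DESeq2 in any of the 6 planned comparisons, of which the text gives a selection; and the 10 genes most like the marker profile. For 5 listed genes older symbols were used, and 6 (C1s1, Hbb-bt, Ighm, Igkc, Ly6g and Trbc2) had no row under the name searched. Positions and start regions are RefSeq's for GRCm38.p6.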

Additional observations from a re-analysis of the deposited data

How the results depend on the processing

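Of 937 values of the markers recomputed under an alternative, 815 kept their direction and their side of the threshold, 53 changed sign, 28 lost and 41 gained a call; the 80 levels recomputed with another scaling moved by less than 1 SD. The cause was not tested where none is named. No paired analysis was possible because the groups share no mouse numbers. Depth limits Cd68, Cd74 and, in males, Vsig4 and C1qb, and with 3 mice a group the calls follow single libraries.

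When every gene with at least 1 count was kept, edgeR called 484 genes and 1 marker in KOF against WTF, 29 and 1 in KOM against WTM (Marco in both, at 1.41 and -2.45), 325 and 2 for the difference of the KO effects, and 536 and 6 in WTF against WTM. With at least 10 counts in every library, which leaves 4 markers to test, it called 50 genes and 0 markers in WTF against WTM and 2 markers in the contrast of all females with all males. DESeq2 called 303 genes in KOF against WTF, 6 in KOM against WTM, 260 for the difference of the KO effects and 338 in WTF against WTM. With 1 fit of all 4 groups, edgeR called 427 genes in KOF against WTF, 505 in WTF against WTM, and 352 genes and 4 markers in KOF against KOM.

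With limma-voom, Clec4f turned to 0.033 in KOF against WTF, Cd5l to -0.067 in the difference of the KO effects, Marco to -0.16 in both sexes combined (0 genes called) and to 0.68 in WTF against WTM (1 marker called, C1qb). With library quality weights, limma called 1058 genes and 2 markers in KOF against WTF (Vsig4 and C1qa), 558 genes for the difference, 0 in both sexes combined, 802 genes and 5 markers in WTF against WTM and 1647 genes between all females and all males. Clec4f was then 0.20 in KOF against WTF, Cd5l -0.049 in the difference and 0.041 in both sexes combined, and Marco -0.19 in both sexes combined and 0.97 in WTF against WTM. A term for sex gave Marco -0.44 in both sexes combined.

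DESeq2 without WTF 1091 called 828 genes and 2 markers in KOF against WTF, 647 for the difference, 728 in WTF against WTM and 1310 between all females and all males, with Clec4f at 0.33 in KOF against WTF and Marco at -0.091 in both sexes combined. Without KOF 1070 and WTM 1086 together, chosen after seeing the data, edgeR called 2 genes for the difference, 0 in both sexes combined and 370 between all females and all males. In the difference Lyz2 was then -0.62, Cd5l -1.11, Marco -0.46, C1qa -1.28, C1qb -0.22 and C1qc -0.72, and in both sexes combined Clec4f was -0.26, Lyz2 -0.03 and Marco -0.53.

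Leaving out each mouse in turn, edgeR called 0 to 936 genes and 0 to 2 markers in KOF against WTF (highest without WTF 1091), 0 to 3 genes in KOM against WTM, 0 to 522 for the difference (highest without WTF 1091), 0 to 1 in both sexes combined, 43 to 740 genes and 0 to 5 markers in WTF against WTM (lowest without WTM 1087, highest without WTF 1091), 486 to 1056 in KOF against KOM (lowest without KOM 1081) and 481 to 1418 between all females and all males (lowest without KOF 1104, highest without WTF 1091). In KOF against WTF, Clec4f ran from -0.25 to 0.32, Marco from -0.34 to 1.85 and C1qc from -0.29 to 0.34. In KOM against WTM, Lyz2 ran from -1.35 to 0.89, Cd5l from -0.95 to 0.64, Marco from -3.07 to 0.14, C1qa from -1.14 to 0.40 and C1qc from -1.36 to 0.41. For the difference, Lyz2 ran from -0.19 to 2.02, Cd5l from -0.87 to 0.68, Marco from 1.29 to 4.44, C1qc from -0.24 to 1.51, C1qa from -1.10 to 0.42 and C1qb from -0.43 to 0.76. In both sexes combined, Clec4f ran from -0.15 to 0.49, Marco from -1.48 to 0.98, C1qc from -0.63 to 0.060 and Lyz2 from -0.22 to 0.52. Marco ran from -1.48 to 1.63 in WTF against WTM.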
